A study of Mus musculus with 16 samples.

Results

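The spleen after 5 days of imiquimod was compared with the spleen before treatment, in both genotypes together. The comparison used 8 of the 16 libraries of the series. They were taken by their labels: the 4 libraries of day 5 and the 4 of day 0, with genotype as a term of the model. The comparison itself was chosen with earlier results of these data known. Imiquimod is a small agonist of Toll-like receptor 7 that is put on mouse skin to induce psoriasis-like inflammation. The day 5 groups were male C57BL/6 mice lacking PKR (2 libraries) and male wild-type C57BL/6 mice (2 libraries), both given 62.5 mg of 5% cream each day on shaved back skin. The day 0 groups were the same genotypes with no day of treatment, 2 libraries each. PKR is the kinase, encoded by Eif2ak2, that is switched on by double-stranded RNA and then phosphorylates eIF2 alpha. Neither the deleted part of Eif2ak2 nor the cells that lack it are given in the labels. Each library pooled RNA of 2 spleens, so the differences between single mice were not measured. Cells had passed a 70-µm mesh and red cell lysis before RNA was extracted, and ribosomal RNA was depleted. The labels name no group with cream base alone and none kept to day 5 untreated, so the drug, the cream, the shaving and the passing of time cannot be told apart.

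In adult mice the spleen filters blood in its red pulp, holds lymphocytes in its white pulp, and can make blood cells when the bone marrow alone does not meet demand. Erythropoietin then drives progenitors, through the factors Gata1 and Klf1, to divide a few more times while they load iron, build haem and globin, and lay down the red cell membrane skeleton. Day 5 spleens of both genotypes carried the transcripts of this programme at high level together with those of dividing cells, while transcripts of T cells, B cells and natural killer cells were lower.

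Library totals were 35026754 to 67333830 fragments over the 8 libraries. Levels are CPM, the usual count unit scaled to library size, of 1 chosen transcript for each gene. The spleen label was checked on marker genes. The B cell gene Ms4a1 had 156 to 204 CPM on day 5, against 335 to 459 CPM on day 0, and Spic, the factor of red pulp macrophages, had 13.3 to 14.7 CPM on day 5, against 6.33 to 7.48 CPM on day 0. The pancreatic genes Prss1, Ins1 and Ins2 were at 0 in all 8 libraries. They belong to a list of 21 epithelial and pancreatic genes, of which 7 had enough counts to be tested. Of those 7, 4 were higher on day 5 and 1 lower, as described below. The first principal component held 90.4% of the variance over the 8 libraries and set day 5 (50.6 to 69.8) apart from day 0 (-65.8 to -46.3). Mitochondrial transcripts took 2.71 to 2.87% of the kept counts on day 5, against 4.31 to 7.42% on day 0. The abundant small RNAs Rn7s1, Rn7s2 and Rn7sk took 10.1 to 13.5% on day 5, against 15.2 to 21.6% on day 0. Their part in the results was not tested. The targeted gene, Eif2ak2, kept its transcript in the knockout: it had 15.6 and 18.4 CPM in the knockout and 28.3 and 29 CPM in the wild type on day 5, against 11.9 and 14.5 CPM in the knockout and 23.99 and 25.7 CPM in the wild type on day 0. It was lower in knockout than in wild-type libraries by a log2 value of -0.83 (edgeR adjusted p = 0.00307). That call was lost in 3 alternative fits, with adjusted p of 0.845 with all 16 libraries, 0.0659 with limma and 0.0776 with summed isoforms.

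Of 17923 genes tested with edgeR's quasi-likelihood test, 5150 (28.7%) were higher and 4775 (26.6%) lower on day 5 at an adjusted p under 0.05. A change of 2-fold or more was seen in 2540 of the higher and 1378 of the lower genes, and the median log2 change over all genes tested was -0.0038. Since 55.4% of all genes were called, a count of called list members is read against these shares. In 4763 genes (26.6%) all 4 libraries of day 5 were above all 4 of day 0, and in 4430 genes (24.7%) they were all below. Changes are on the log2 scale, day 5 minus day 0, and adjusted p-values come from edgeR unless another tool is named. SE is the size of the change divided by the square root of the F value of edgeR's test. It is an approximate standard error and was not taken from the fit itself. CPM are shares of a library. In whole spleen a lower value can come from fewer cells of a type or from less RNA per cell, and these cannot be told apart.

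Genes of the erythroid lineage were mostly higher, from the regulators that commit progenitors to the proteins of the finished cell. Among 17 erythroid transcription factors and signalling genes, 13 were higher and 2 lower, with a median log2 change of 2.14. Epor, the receptor for erythropoietin, had 42.2 and 33.6 CPM in the knockout and 23.5 and 23.5 CPM in the wild type on day 5, against 0.8497 and 1.15 CPM in the knockout and 0.895 and 2.101 CPM in the wild type on day 0. The days were far apart, and the knockout pair of day 5 was above the wild-type pair (log2 change 4.53, SE 0.36, adjusted p = 4.29e-05). Gata1, the zinc finger factor that red cell precursors need, had 59.5 and 42.3 CPM in the knockout and 37.2 and 42.02 CPM in the wild type on day 5, against 2.02 and 2.56 CPM in the knockout and 1.43 and 3.39 CPM in the wild type on day 0 (log2 change 4.23, SE 0.27, adjusted p = 3.09e-06). Klf1, which switches on adult beta globin and many membrane genes, had 109.95 and 71.6 CPM in the knockout and 58.7 and 67.6 CPM in the wild type on day 5, against 2.91 and 4.81 CPM in the knockout and 1.88 and 5.51 CPM in the wild type on day 0 (log2 change 4.31, SE 0.41, adjusted p = 0.000234). In both factors the 2 days did not overlap. Gfi1b, a repressor of transcription in erythroid and megakaryocyte cells, had 21.5 to 40.98 CPM on day 5, against 1.03 to 2.101 CPM on day 0 (log2 change 4.29, adjusted p = 2.89e-06). Sox6, a factor of late erythroid maturation, had 66.98 to 149.7 CPM on day 5, against 1.62 to 7.75 CPM on day 0 (log2 change 4.32, adjusted p = 0.00136). Kit, the stem cell factor receptor of early progenitors, moved far less, with 13.7 to 19.01 CPM on day 5, against 9.37 to 13.3 CPM on day 0 (log2 change 0.63, adjusted p = 0.000997). The lower members were Cited2, a co-regulator of transcription (log2 change -0.94), and Ikzf1, the lymphoid factor Ikaros (log2 change -0.30).

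**Figure D1:**
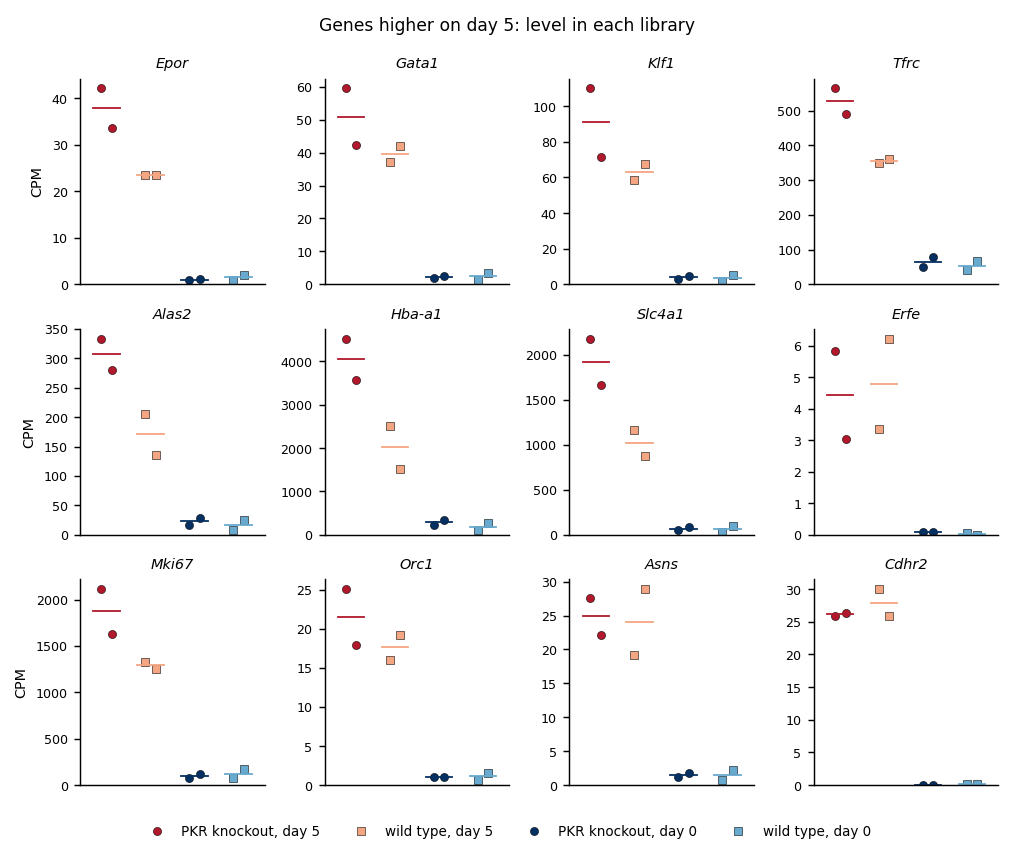
Level of 12 genes that were higher on day 5, in CPM on linear axes that start at 0. Each point is 1 library of 2 pooled spleens and each short line is the mean of the 2 libraries of a group. In each gene the 4 day 5 libraries sit above the 4 day 0 libraries. The knockout pair lies above the wild-type pair on day 5 in Epor, Gata1, Klf1, Tfrc, Alas2, Hba-a1, Slc4a1 and Mki67, and the pairs overlap in Erfe, Orc1, Asns and Cdhr2.

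Upstream sequences of 4 of these genes are given because their transcripts moved together and their windows hold the GATA motif. Each is the 250 bases before the RefSeq start (GRCm38.p6, which is mm10), read 5′ to 3′ on the gene's own strand. The capitals mark AGATAA or TGATAA on either strand, a form of the site that Gata1 recognises. The windows lie at chr8:84901732-84901981 (plus strand), chr9:21963577-21963826 (minus strand), chrX:150547167-150547416 (plus strand) and chr11:32283422-32283671 (plus strand).
Klf1: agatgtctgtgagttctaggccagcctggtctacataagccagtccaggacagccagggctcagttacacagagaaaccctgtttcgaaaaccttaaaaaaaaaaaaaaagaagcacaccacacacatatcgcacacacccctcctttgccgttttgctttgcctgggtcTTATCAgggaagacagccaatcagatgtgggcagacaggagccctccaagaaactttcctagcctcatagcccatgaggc
Epor: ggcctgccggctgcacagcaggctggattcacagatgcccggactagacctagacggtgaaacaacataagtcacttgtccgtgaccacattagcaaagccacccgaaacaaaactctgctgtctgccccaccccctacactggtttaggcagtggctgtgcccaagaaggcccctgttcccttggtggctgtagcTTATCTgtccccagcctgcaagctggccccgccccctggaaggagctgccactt
Alas2: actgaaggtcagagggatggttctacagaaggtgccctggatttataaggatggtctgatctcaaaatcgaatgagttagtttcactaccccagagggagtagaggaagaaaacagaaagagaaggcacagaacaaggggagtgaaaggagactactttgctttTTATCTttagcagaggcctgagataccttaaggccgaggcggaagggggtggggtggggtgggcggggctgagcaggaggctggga
Hba-a1: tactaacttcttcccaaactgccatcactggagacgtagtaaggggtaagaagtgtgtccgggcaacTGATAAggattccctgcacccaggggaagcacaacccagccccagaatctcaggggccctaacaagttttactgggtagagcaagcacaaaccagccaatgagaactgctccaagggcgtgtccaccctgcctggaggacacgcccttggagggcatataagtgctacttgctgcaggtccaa
Each of these windows held 1 match, whose first base lay 80 bases before the start in Klf1, 54 in Epor, 86 in Alas2 and 183 in Hba-a1. The windows of Gata1 and Tfrc held none. Of 10257 tested genes with such a window, 9.51% held the motif, as did 10.5% of those higher and 9.03% of those lower on day 5. Of 66 members of the erythroid lists that were higher and had a window, 18 held it (27.3%). The box CCNCNCCC, a form of the site that Klf1 recognises, was in 66.7% of those 66 windows and in 63.4% of all. A match is a run of letters, and its use was not measured.

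Globin genes were higher in both genotypes. Of 7 globin genes tested, 6 were higher and none lower, with a median log2 change of 3.46. Hba-a1, an adult alpha globin gene, had 4529 and 3568 CPM in the knockout and 2518 and 1515 CPM in the wild type on day 5, against 226 and 344 CPM in the knockout and 108 and 259.7 CPM in the wild type on day 0 (log2 change 3.64, SE 0.36, adjusted p = 0.00018). Hbb-bt, an adult beta globin gene, had 3000.1 and 2255 CPM in the knockout and 1537 and 1064 CPM in the wild type on day 5, against 165 and 239.8 CPM in the knockout and 82.7 and 197 CPM in the wild type on day 0 (log2 change 3.46, SE 0.35, adjusted p = 0.000163). In both, the lowest day 5 library was several times the highest day 0 library. Hba-a1 and Hba-a2, and likewise Hbb-bt and Hbb-bs, are near-identical copies, so the split of fragments between copies is uncertain. All globin genes together took 2.93 and 2.18% of the kept counts in the knockout and 1.48 and 0.981% in the wild type on day 5, against 0.126 and 0.221% in the knockout and 0.0645 and 0.167% in the wild type on day 0. Hbq1b, a theta globin gene, had 6.98 to 33.2 CPM on day 5, against 0.064 to 0.537 CPM on day 0 (log2 change 5.74, adjusted p = 0.000457). The embryonic gene Hba-x did not pass, with 0.0245 to 1.41 CPM on day 5, against 0 to 0.966 CPM on day 0 (log2 change 1.31, adjusted p = 0.498). Hbb-y, Hbb-bh1 and Hbb-bh2, the other embryonic and fetal beta-like genes of the list, had too few counts to be tested.

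Haem genes were higher with 1 exception. Of 15 haem synthesis and transport genes, 14 were higher and none lower (median log2 change 2.50). Alas2, the erythroid enzyme of the first and limiting step, had 334 and 280.1 CPM in the knockout and 206 and 136 CPM in the wild type on day 5, against 17.1 and 28.96 CPM in the knockout and 7.995 and 24.3 CPM in the wild type on day 0 (log2 change 3.57, SE 0.43, adjusted p = 0.000805). The days were far apart, and the lowest value of all was in wild-type replicate 1 of day 0. Cpox, a later mitochondrial enzyme, had 124 to 208 CPM on day 5, against 11.6 to 16 CPM on day 0 (log2 change 3.43, adjusted p = 1.32e-09). Abcg2, a transporter that exports porphyrins, had 35.8 to 54.6 CPM on day 5, against 2.92 to 5.66 CPM on day 0 (log2 change 3.38, adjusted p = 4.35e-07). The exception was Alas1, the form of the first enzyme used outside red cells, with 11.2 to 13.8 CPM on day 5, against 9.73 to 12.7 CPM on day 0 (log2 change 0.17, adjusted p = 0.205).

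Iron genes moved by very different amounts. Of 22 genes for iron uptake, storage and export, 16 were higher and 1 lower (median log2 change 0.58). Tfrc, the transferrin receptor, had 566 and 489.7 CPM in the knockout and 349 and 362 CPM in the wild type on day 5, against 48.6 and 79.1 CPM in the knockout and 40.3 and 67.3 CPM in the wild type on day 0 (log2 change 2.89, SE 0.20, adjusted p = 5.78e-07). Steap3, the endosomal reductase that works beside it, had 16.02 to 28 CPM on day 5, against 1.11 to 1.95 CPM on day 0 (log2 change 3.87, adjusted p = 1.31e-08). Erfe encodes erythroferrone, a hormone of erythroblasts that lowers liver hepcidin. It had 5.82 and 3.06 CPM in the knockout and 3.38 and 6.23 CPM in the wild type on day 5, against 0.0809 and 0.0732 CPM in the knockout and 0.064 and 0 CPM in the wild type on day 0 (log2 change 6.46, SE 0.47, adjusted p = 3.01e-07). Blvrb, a reductase of haem breakdown products, had 123 to 183 CPM on day 5, against 15.1 to 18.4 CPM on day 0 (log2 change 3.02, adjusted p = 2.27e-10). Slc40a1, the iron exporter of macrophages, changed less, with 63.4 to 69.98 CPM on day 5, against 30.7 to 40.4 CPM on day 0 (log2 change 0.91, adjusted p = 1.65e-06). Hmox1, which breaks haem open, had 27.9 to 34.9 CPM on day 5, against 21.6 to 28.6 CPM on day 0 (log2 change 0.33, adjusted p = 0.0187), and its call was lost in 4 alternatives (adjusted p 0.0553 to 0.0819). Those were the fit of all 16 libraries and the fits without knockout replicate 2 of day 0, knockout replicate 1 of day 5 or wild-type replicate 1 of day 5. The lower member was Trf, which encodes transferrin (17.1 to 21.3 CPM on day 5, against 28.6 to 35.2 CPM on day 0; log2 change -0.70, adjusted p = 3.53e-05), and 2 members were lower without wild-type replicate 1 of day 0.

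Membrane genes gave the highest median among the erythroid lists. Of 25 red cell membrane and blood group genes, 24 were higher and 1 lower, and the median log2 change was 4.13. Slc4a1, the anion exchanger band 3, had 2181 and 1664 CPM in the knockout and 1169 and 880.4 CPM in the wild type on day 5, against 49.9 and 83.5 CPM in the knockout and 24.6 and 93.7 CPM in the wild type on day 0 (log2 change 4.48, SE 0.54, adjusted p = 0.000919). Knockout replicate 1 of day 5 was the highest and wild-type replicate 1 of day 0 the lowest. Ank1, the ankyrin that ties band 3 to spectrin, had 237 to 469.5 CPM on day 5, against 5.33 to 19.4 CPM on day 0 (log2 change 4.81, adjusted p = 0.000562). Sptb, the beta chain of spectrin, had 368 to 781 CPM on day 5, against 7.21 to 32.98 CPM on day 0 (log2 change 4.79, adjusted p = 0.0011). Dmtn and Add2, which bundle and cap actin at the skeleton's junctions, had log2 changes of 4.51 and 4.66. The lower member was Slc2a1, a glucose transporter (6.75 to 9.39 CPM on day 5, against 13.3 to 18.8 CPM on day 0; log2 change -1.06, adjusted p = 4.92e-06). Over the list, summed levels were 3834 to 7621 CPM on day 5, against 362 to 636 CPM on day 0.

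Genes of late maturation followed. Of 23 tested, 22 were higher and none lower (median log2 change 2.91). Hemgn, a nuclear protein of erythroid cells, had 148 to 288 CPM on day 5, against 3.11 to 14.1 CPM on day 0 (log2 change 4.40, adjusted p = 0.00129). Car2, the carbonic anhydrase of red cells, had 515 to 847 CPM on day 5, against 15.5 to 46.2 CPM on day 0 (log2 change 4.26, adjusted p = 0.000277). Trim10, a RING finger protein of erythroid cells, had 62.4 to 147 CPM on day 5, against 2.52 to 8.48 CPM on day 0 (log2 change 4.11, adjusted p = 0.000658). Of 19 genes for the clearance of organelles and the ubiquitin pathway in reticulocytes, 14 were higher and 2 lower (median log2 change 1.13). The lower count was 1 without knockout replicate 1 or wild-type replicate 2 of day 5 and without either wild-type replicate of day 0. Among them Ube2o, the enzyme that tags surplus ribosomal proteins in reticulocytes, had 60.3 to 122 CPM on day 5, against 17.9 to 22.6 CPM on day 0 (log2 change 2.24, adjusted p = 1.11e-06), and Fbxo30, an F-box protein, had 29.8 to 56.6 CPM on day 5, against 7.21 to 12.9 CPM on day 0 (log2 change 2.11, adjusted p = 5.41e-07).

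Signals that are known to support red cell production in the stressed mouse spleen changed little as a list. Of 19 niche and regulator genes, 13 had enough counts to be tested. Of these, 4 were higher, 1 was lower and 8 were not called (median log2 change 0.29). The share that was higher was near the 28.7% of all genes tested. Spic, which red pulp macrophages need, had 13.3 to 14.7 CPM on day 5, against 6.33 to 7.48 CPM on day 0 (log2 change 1.03, adjusted p = 7.41e-07). Mertk, a receptor with which macrophages take up dying cells and expelled nuclei, had 11.96 to 13.97 CPM on day 5, against 5.24 to 10 CPM on day 0 (log2 change 0.93, adjusted p = 0.000174). Hif1a, the oxygen-regulated factor, was lower (41.2 to 49.1 CPM on day 5, against 60.2 to 71.5 CPM on day 0; log2 change -0.49, adjusted p = 0.000492). Vcam1, an adhesion molecule of macrophages that hold erythroblasts, had 63.5 to 79.4 CPM on day 5, against 52.4 to 66.3 CPM on day 0 (log2 change 0.32, adjusted p = 0.017). Its call was lost in 5 alternatives (adjusted p 0.061 to 0.0836): with summed isoforms, and without replicate 1 of any of the 4 groups. Without wild-type replicate 2 of day 0, 7 members of the list were higher instead of 4. Bmp4, a signal of stress erythropoiesis in mouse spleen, had 0 to 0.0255 CPM on day 5, against 0 to 0.0307 CPM on day 0, and Gdf15 had 0 to 0.178 CPM on day 5, against 0 to 0.171 CPM on day 0. Both had too few counts to be tested.

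Genes of cell division rose without exception. All 29 DNA replication genes tested were higher (median log2 change 2.72), as were all 28 mitosis genes (median log2 change 3.32). Mki67, a protein of dividing cells, had 2116 and 1629 CPM in the knockout and 1331 and 1254 CPM in the wild type on day 5, against 74.5 and 124 CPM in the knockout and 71.9 and 170.3 CPM in the wild type on day 0 (log2 change 3.83, SE 0.39, adjusted p = 0.00027). The 2 days did not overlap, and the knockout pair of day 5 was the higher. Orc1, a subunit of the origin recognition complex, had 16.1 to 25.1 CPM on day 5, against 0.704 to 1.595 CPM on day 0 (log2 change 4.14, adjusted p = 1.68e-08). Cdc6, which loads the replicative helicase onto origins, had 49.3 to 73.96 CPM on day 5, against 3.16 to 5.43 CPM on day 0 (log2 change 3.82, adjusted p = 3.03e-09). Mcm10, which helps to start that helicase, had 25.8 to 42.1 CPM on day 5, against 2.171 to 3.56 CPM on day 0 (log2 change 3.65, adjusted p = 1.68e-08). E2f8, a repressor of the E2F family, had 40.4 to 72.96 CPM on day 5, against 2.32 to 6.03 CPM on day 0 (log2 change 3.77, adjusted p = 0.000434). Plk1, the kinase that drives entry into mitosis, had 29.8 to 47.6 CPM on day 5, against 2.0 to 3.71 CPM on day 0 (log2 change 3.73, adjusted p = 1.51e-07). Ube2c, the ubiquitin carrier of the anaphase-promoting complex, had 36.1 to 66.2 CPM on day 5, against 2.601 to 4.68 CPM on day 0 (log2 change 3.72, adjusted p = 3.41e-06). Hmmr, a spindle protein, had 55.6 to 82.7 CPM on day 5, against 3.65 to 7.21 CPM on day 0 (log2 change 3.71, adjusted p = 3.42e-06). Summed over the list, mitosis genes had 3056 to 4715 CPM on day 5, against 249.6 to 458 CPM on day 0.

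The upstream windows of 3 mitosis genes are shown because most windows of this group held the CCAAT box, which the factor NF-Y recognises. The capitals mark CCAAT on either strand. The windows lie at chr7:135716380-135716629 (minus strand), chr7:122159185-122159434 (plus strand) and chr2:164769679-164769928 (plus strand).
Mki67: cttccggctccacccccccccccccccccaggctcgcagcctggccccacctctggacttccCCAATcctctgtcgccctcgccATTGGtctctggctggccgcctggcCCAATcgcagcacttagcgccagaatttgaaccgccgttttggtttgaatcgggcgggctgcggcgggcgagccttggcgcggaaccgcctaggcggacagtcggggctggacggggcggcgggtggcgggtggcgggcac
Plk1: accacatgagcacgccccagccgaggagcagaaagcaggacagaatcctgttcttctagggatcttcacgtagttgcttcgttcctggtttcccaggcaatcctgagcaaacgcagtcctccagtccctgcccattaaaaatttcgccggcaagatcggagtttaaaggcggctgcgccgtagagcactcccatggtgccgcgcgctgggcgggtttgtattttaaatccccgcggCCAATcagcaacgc
Ube2c: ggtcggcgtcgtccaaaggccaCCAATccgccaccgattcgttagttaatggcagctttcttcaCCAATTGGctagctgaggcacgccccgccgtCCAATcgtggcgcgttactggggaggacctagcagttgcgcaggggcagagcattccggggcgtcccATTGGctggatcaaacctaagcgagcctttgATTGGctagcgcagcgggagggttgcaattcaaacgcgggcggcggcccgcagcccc
The windows held 3 matches in Mki67, 1 in Plk1 and 6 in Ube2c. Of 45 replication and mitosis genes with a window, 34 held the box (75.6%), against 36.8% of all 10257 windows. The E2F motif TTTNNCGC was in 8 of the 45 (17.8%) and in 7.37% of all. Neither share was tested.

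Other blood lineages moved unevenly. Of 18 stem and progenitor genes, 7 were higher and 3 lower (median log2 change 0.22). Adgrg1, an adhesion receptor of stem cells, had 6.48 to 9.33 CPM on day 5, against 1.44 to 2.44 CPM on day 0 (log2 change 2.18, adjusted p = 9.65e-08). Hoxa9, a homeobox factor of progenitors, had 0.237 to 0.752 CPM on day 5, against 0.0488 to 0.123 CPM on day 0 (log2 change 2.166, adjusted p = 0.000984). Slamf1, which is on stem cells and on lymphocytes, was lower (4.54 to 5.89 CPM on day 5, against 13.4 to 15.8 CPM on day 0; log2 change -1.44, adjusted p = 4.98e-08). Of 20 megakaryocyte and platelet genes, 14 were higher and none lower (median log2 change 1.25), or 1 lower without knockout replicate 2 of day 0. Gp9, a subunit of the platelet receptor for von Willebrand factor, had 1.25 to 3.27 CPM on day 5, against 0.195 to 0.485 CPM on day 0 (log2 change 2.70, adjusted p = 6.84e-07). Vwf itself had 9.66 to 18.2 CPM on day 5, against 1.56 to 2.76 CPM on day 0 (log2 change 2.49, adjusted p = 6.14e-07). Pf4, a platelet chemokine, had 1.03 to 1.86 CPM on day 5, against 0.448 to 0.798 CPM on day 0 (log2 change 1.24, adjusted p = 0.000566). With only genes of FPKM 1 or more tested, 8 platelet genes and 3 stem and progenitor genes were higher.

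Neutrophil genes moved most in the primary granule list. Of 12 primary granule genes, which are transcribed in early neutrophil precursors, 8 were higher and 2 lower (median log2 change 1.41). Mpo, myeloperoxidase, had 48.9 and 46.4 CPM in the knockout and 53.1 and 62.2 CPM in the wild type on day 5, against 9.29 and 5.22 CPM in the knockout and 7.95 and 20.3 CPM in the wild type on day 0 (log2 change 2.35, SE 0.37, adjusted p = 0.00244). The days did not overlap, though wild-type replicate 2 of day 0 was above the other day 0 libraries. Elane, neutrophil elastase, had 10.6 to 15.3 CPM on day 5, against 1.39 to 5.17 CPM on day 0 (log2 change 2.13, adjusted p = 0.000219). Prtn3 and Ctsg, its neighbours in the granule, had log2 changes of 2.36 and 2.50. Of 15 secondary granule genes, which later precursors make, 1 was higher and 1 lower (median log2 change 0.11). Ceacam1, an adhesion molecule, was the higher (log2 change 0.71, adjusted p = 3.22e-05), and Olfm4 the lower (log2 change -0.78, adjusted p = 0.0182). Without wild-type replicate 2 of day 0, 7 were higher and none lower. There were 2 higher and 2 lower without knockout replicate 2 of day 0, 2 higher without knockout replicate 1 of day 5 and 2 lower without knockout replicate 2 of day 5. The call of Olfm4 was also lost with all 16 libraries and without knockout replicate 1 of day 0 or wild-type replicate 1 of day 5. Its adjusted p was 0.051 to 0.113 over these 4 fits. Of 18 genes of mature neutrophils, 5 were higher and 4 lower (median log2 change 0.04), near the shares of all genes tested (28.7% higher, 26.6% lower). The higher count was 3 without replicate 2 of either genotype on day 5 or without wild-type replicate 1 of day 0. The alarmin S100a8 had 100.2 and 146 CPM in the knockout and 135 and 159 CPM in the wild type on day 5, against 147 and 147 CPM in the knockout and 119 and 214 CPM in the wild type on day 0 (log2 change -0.22, adjusted p = 0.322). The days overlapped, and without wild-type replicate 1 of day 0 the value was -0.38 (adjusted p = 0.0175). S100a9, its partner, had 227 to 374 CPM on day 5, against 246 to 454 CPM on day 0 (log2 change -0.02, adjusted p = 0.947).

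Basophil, mast cell and eosinophil genes gave 4 higher and 5 lower of 16 tested (median log2 change -0.34). Both counts were near the shares of all genes tested (28.7% higher, 26.6% lower), so they show no direction of the list. Il1rl1, the receptor for interleukin 33, had 13.8 to 19.2 CPM on day 5, against 2.64 to 4.001 CPM on day 0 (log2 change 2.34, adjusted p = 1.38e-09). Ear2, a ribonuclease of eosinophils and monocytes, had 25.1 to 30.3 CPM on day 5, against 9.53 to 10.7 CPM on day 0 (log2 change 1.46, adjusted p = 6.91e-09). Il5ra, the eosinophil and B cell receptor for interleukin 5, was lower (4.301 to 6.46 CPM on day 5, against 12.1 to 15.2 CPM on day 0; log2 change -1.29, adjusted p = 7.55e-07).

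Macrophage and monocyte genes were mostly higher. Of 20 red pulp macrophage genes, 14 were higher and 3 lower (median log2 change 0.82). Cd5l, a secreted macrophage protein, had 27.8 and 33.8 CPM in the knockout and 31.5 and 29.1 CPM in the wild type on day 5, against 7.67 and 4.93 CPM in the knockout and 6.55 and 7.58 CPM in the wild type on day 0 (log2 change 2.19, SE 0.13, adjusted p = 2.2e-09). The 4 libraries of each day lay close together and far from the other day. Pparg, a nuclear receptor of lipid handling, had 9.19 to 10.7 CPM on day 5, against 2.303 to 2.83 CPM on day 0 (log2 change 1.96, adjusted p = 3.97e-09). Itgad, an integrin of red pulp macrophages, had 28.04 to 36.2 CPM on day 5, against 11.5 to 18.3 CPM on day 0 (log2 change 1.16, adjusted p = 2.32e-06). Against this direction, Cd163, the scavenger receptor for haemoglobin, was lower (2.51 to 4.06 CPM on day 5, against 4.95 to 7.04 CPM on day 0; log2 change -0.99, adjusted p = 0.00011). Of 15 monocyte genes, 8 were higher and 1 lower (median log2 change 0.54). Csf1r, the receptor for macrophage colony-stimulating factor, had 188 to 222 CPM on day 5, against 87.2 to 109 CPM on day 0 (log2 change 1.03, adjusted p = 5.15e-07). Ace and Treml4, which are expressed by patrolling monocytes, had log2 changes of 1.24 and 1.19. Cx3cr1, the fractalkine receptor of the same cells, had 23.5 to 27.6 CPM on day 5, against 11.5 to 13.3 CPM on day 0 (log2 change 1.04, adjusted p = 3.08e-07).

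The marginal zone, the rim of macrophages and B cells around the white pulp, had 5 of 16 genes higher and 10 lower (median log2 change -0.79). Cr2, the complement receptor of marginal zone and follicular B cells, had 72.9 and 87.6 CPM in the knockout and 99.3 and 70.6 CPM in the wild type on day 5, against 282 and 337 CPM in the knockout and 271 and 282 CPM in the wild type on day 0 (log2 change -1.83, SE 0.12, adjusted p = 5.96e-09). S1pr3, a sphingosine phosphate receptor of marginal zone B cells, had 1.94 to 3.62 CPM on day 5, against 9.21 to 11.3 CPM on day 0 (log2 change -1.99, adjusted p = 6.4e-08). Cd209a, a lectin of dendritic cells, had 1.13 to 1.76 CPM on day 5, against 4.98 to 8.37 CPM on day 0 (log2 change -2.15, adjusted p = 7.78e-08). Of 19 conventional dendritic cell genes, 3 were higher and 9 lower (median log2 change -0.40). Apol7c, an apolipoprotein L of dendritic cells, had 0.818 and 1.01 CPM in the knockout and 1.003 and 0.5405 CPM in the wild type on day 5, against 9.37 and 11.4 CPM in the knockout and 10.2 and 9.75 CPM in the wild type on day 0 (log2 change -3.60, SE 0.18, adjusted p = 3.06e-10). Of 14 plasmacytoid dendritic cell genes, 3 were higher and 5 lower (median log2 change -0.28), and 3 instead of 5 were lower without knockout replicate 1 or wild-type replicate 1 of day 0, or without knockout replicate 1 or wild-type replicate 2 of day 5. Klk1, a kallikrein, had 0.102 to 0.267 CPM on day 5, against 0.585 to 0.981 CPM on day 0 (log2 change -2.19, adjusted p = 3.54e-05). Lair1, an inhibitory receptor for collagen, was higher, with 34.1 to 39.7 CPM on day 5, against 12.6 to 15.2 CPM on day 0 (log2 change 1.36, adjusted p = 1.44e-08), as was Smim5, a small membrane protein, with 3.99 to 7.72 CPM on day 5, against 1.15 to 2.06 CPM on day 0 (log2 change 1.91, adjusted p = 4.06e-06). Genes of antigen presentation on MHC class II fell, with 13 of 15 lower and none higher (median log2 change -0.52). H2-Ob, a subunit of the modulator H2-O, had 114 to 125 CPM on day 5, against 199.6 to 235 CPM on day 0 (log2 change -0.93, adjusted p = 6.39e-07). Cd86 and Cd80, the co-stimulatory ligands, had log2 changes of -0.80 and -0.89.

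All 25 T cell genes tested were lower, with a median log2 change of -1.29. Il7r, the survival receptor of resting T cells, had 19.4 and 21.6 CPM in the knockout and 16.7 and 14.5 CPM in the wild type on day 5, against 124 and 161 CPM in the knockout and 109.7 and 104 CPM in the wild type on day 0 (log2 change -2.79, SE 0.11, adjusted p = 1.05e-10). No day 5 library came near the lowest day 0 library. Cd3d, which carries the T cell receptor's signal, had 9.61 and 13.7 CPM in the knockout and 11.1 and 11.2 CPM in the wild type on day 5, against 37.7 and 37.4 CPM in the knockout and 39.7 and 30.5 CPM in the wild type on day 0 (log2 change -1.67, SE 0.12, adjusted p = 1.25e-08). Cd3e, its partner chain, had 10.9 to 12.7 CPM on day 5, against 27.7 to 30.2 CPM on day 0 (log2 change -1.29, adjusted p = 2.21e-08). Themis, an adaptor needed for thymocyte selection, had 9.48 to 12.1 CPM on day 5, against 30.3 to 43.1 CPM on day 0 (log2 change -1.74, adjusted p = 9.42e-09). Of 18 regulatory and helper T cell genes, 8 were lower and 2 higher (median log2 change -0.22). Foxp3, the factor of regulatory T cells, had 1.94 to 4.01 CPM on day 5, against 3.0 to 5.22 CPM on day 0 (log2 change -0.58, adjusted p = 0.00358), and its call was lost without the genotype term (adjusted p = 0.0547). Gata3, the factor of T helper 2 cells, had 1.93 to 3.17 CPM on day 5, against 4.71 to 5.83 CPM on day 0 (log2 change -1.08, adjusted p = 5.64e-05). Lag3, an inhibitory receptor of activated T cells, was higher, with 3.68 to 4.94 CPM on day 5, against 1.22 to 2.64 CPM on day 0 (log2 change 1.18, adjusted p = 4.43e-05).

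Of 20 B cell identity genes, 19 were lower and none higher (median log2 change -0.75). Ms4a1, which encodes CD20, had 156 and 185 CPM in the knockout and 204 and 171 CPM in the wild type on day 5, against 345 and 459 CPM in the knockout and 361 and 335 CPM in the wild type on day 0 (log2 change -1.06, SE 0.12, adjusted p = 2.05e-06). The days were apart, and the genotypes within a day overlapped. Fcmr, the receptor for IgM, had 82.1 to 103 CPM on day 5, against 182 to 210.3 CPM on day 0 (log2 change -1.14, adjusted p = 1.25e-07). Of 17 germinal centre genes, 4 were higher and 7 lower (median log2 change -0.07). The higher share was near the 28.7% of all genes tested. Rgs13, a regulator of G protein signalling, had 0.0511 to 0.297 CPM on day 5, against 1.31 to 2.15 CPM on day 0 (log2 change -2.93, adjusted p = 2.06e-06). Mybl1, a Myb family factor, was higher (7.61 to 8.77 CPM on day 5, against 1.98 to 3.25 CPM on day 0; log2 change 1.55, adjusted p = 3.39e-07). Of 21 natural killer and cytotoxic genes, 13 were lower and 3 higher (median log2 change -0.81). Klre1, a lectin receptor of natural killer cells, had 2.86 and 2.76 CPM in the knockout and 3.35 and 2.35 CPM in the wild type on day 5, against 10.3 and 10.5 CPM in the knockout and 6.74 and 6.49 CPM in the wild type on day 0 (log2 change -1.55, SE 0.16, adjusted p = 6.97e-07). Klrb1c, which encodes NK1.1, had 5.47 to 6.24 CPM on day 5, against 11.2 to 18.6 CPM on day 0 (log2 change -1.42, adjusted p = 3.2e-07). Ifng, interferon gamma, had 0.511 to 1.16 CPM on day 5, against 1.104 to 2.195 CPM on day 0 (log2 change -0.97, adjusted p = 0.00535), whereas Gzmb, granzyme B, was higher, with 7.07 to 11.9 CPM on day 5, against 3.71 to 5.48 CPM on day 0 (log2 change 0.83, adjusted p = 0.00119).

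Receptors that place lymphocytes in the spleen or let them leave fell as well, with 10 of 15 lower and 2 higher (median log2 change -1.26). Cxcr4, the receptor for Cxcl12, had 61.5 to 72.9 CPM on day 5, against 156 to 193 CPM on day 0 (log2 change -1.41, adjusted p = 1.13e-08). Ccr7, which guides T cells to the white pulp, had 20.2 to 25.7 CPM on day 5, against 59.2 to 73.5 CPM on day 0 (log2 change -1.53, adjusted p = 7.92e-09). Cd69, which keeps lymphocytes in tissue, had 13.8 to 17.9 CPM on day 5, against 41.04 to 56.1 CPM on day 0 (log2 change -1.54, adjusted p = 2.35e-08). Summed over the T cell list, levels were 682 and 833 CPM in the knockout and 753 and 674 CPM in the wild type on day 5, against 1866 and 1912 CPM in the knockout and 1937 and 1746 CPM in the wild type on day 0. In the same libraries the red cell membrane list had 7621 and 5888 CPM in the knockout and 4416 and 3834 CPM in the wild type on day 5, against 442 and 610.2 CPM in the knockout and 362 and 636 CPM in the wild type on day 0. The part of the erythroid rise in the lower lymphocyte shares was not tested.

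**Figure D2:**
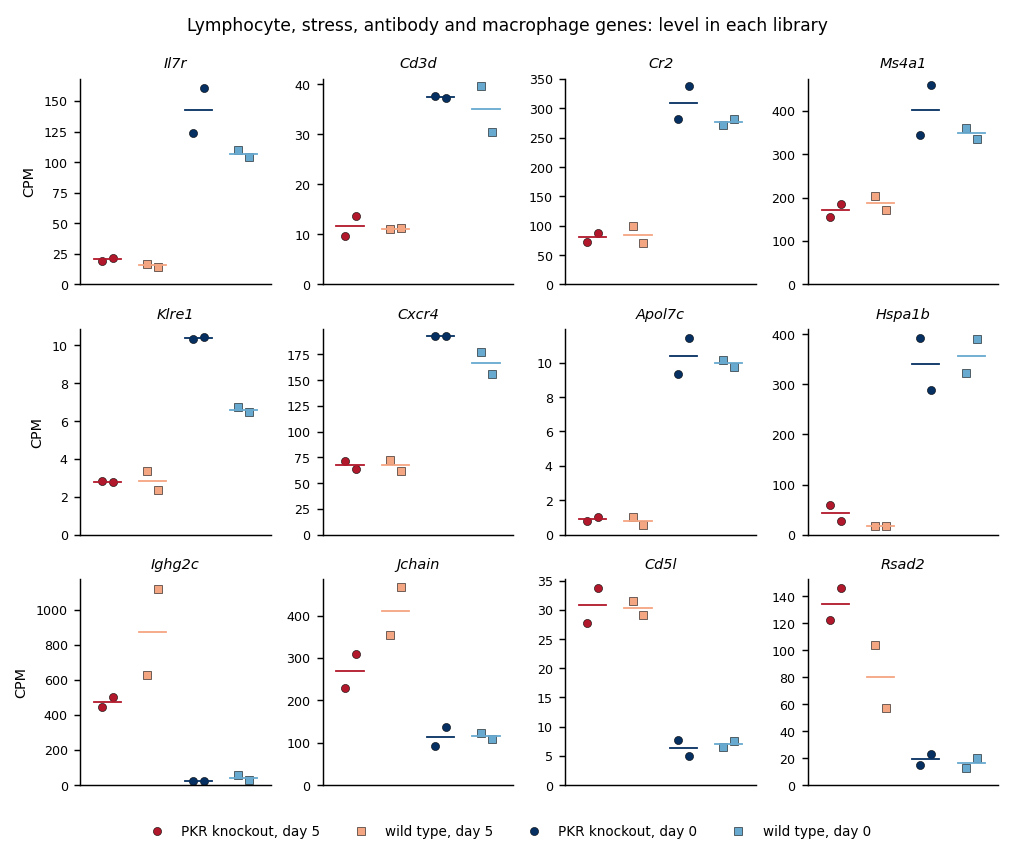
Level of 12 lymphocyte, stress, antibody and macrophage genes, in CPM on linear axes that start at 0. Each point is 1 library of 2 pooled spleens and each short line is the mean of the 2 libraries of a group. The 4 day 5 libraries sit below the 4 day 0 libraries in Il7r, Cd3d, Cr2, Ms4a1, Klre1, Cxcr4, Apol7c and Hspa1b, and above them in Ighg2c, Jchain, Cd5l and Rsad2.

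Antibody genes went the other way from the B cell genes. Of 12 immunoglobulin constant regions, 9 were higher and 1 lower (median log2 change 1.23). Ighg2c, the constant region of IgG2c, had 447 and 504 CPM in the knockout and 626 and 1119 CPM in the wild type on day 5, against 22.2 and 20.3 CPM in the knockout and 54.99 and 28.3 CPM in the wild type on day 0 (log2 change 4.44, SE 0.27, adjusted p = 2.83e-06). Both wild-type libraries of day 5 were above both knockout libraries. Ighg2b had 358 to 851 CPM on day 5, against 24.6 to 49.1 CPM on day 0 (log2 change 3.84, adjusted p = 0.000103). Ighm, the constant region of IgM, had 3189.5 to 5397 CPM on day 5, against 1471 to 2213 CPM on day 0 (log2 change 1.29, adjusted p = 1.57e-07). Ighd, which resting naive B cells co-express with Ighm, was the lower member (171 to 223 CPM on day 5, against 326 to 382 CPM on day 0; log2 change -0.87, adjusted p = 4.06e-06). Ighe, the IgE constant region, had 0.281 to 1.199 CPM on day 5, against 0.0202 to 0.192 CPM on day 0 (log2 change 2.15, adjusted p = 0.000848). Of 20 plasma cell genes, 12 were higher and 4 lower (median log2 change 0.70). Jchain, which joins IgM and IgA into polymers, had 228 and 311 CPM in the knockout and 353 and 467 CPM in the wild type on day 5, against 92.6 and 136 CPM in the knockout and 122 and 108 CPM in the wild type on day 0 (log2 change 1.54, SE 0.18, adjusted p = 2.23e-05). Tnfrsf17, the plasma cell survival receptor BCMA, had 1.25 to 1.75 CPM on day 5, against 0.276 to 0.4904 CPM on day 0 (log2 change 2.07, adjusted p = 4.8e-06). Fkbp11 and Derl3, which serve protein folding and disposal in secretory cells, had log2 changes of 2.03 and 1.99. Constant region genes share flanking sequence, so fragments near their ends may be split between them.

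Interferon-stimulated genes were on the whole lower on day 5, with 19 of 39 lower and 7 higher (median log2 change -0.45). Rsad2, which encodes the antiviral enzyme viperin, was the largest exception in the list: it had 122 and 146 CPM in the knockout and 104 and 57.1 CPM in the wild type on day 5, against 14.8 and 23.2 CPM in the knockout and 12.9 and 20.3 CPM in the wild type on day 0 (log2 change 2.55, SE 0.29, adjusted p = 0.000321). Higher too was Isg15, which is joined to other proteins as ubiquitin is (5.71 to 12.7 CPM on day 5, against 4.11 to 4.75 CPM on day 0; log2 change 1.18, adjusted p = 0.000238). Ifit3, a binder of viral RNA, was lower (2.61 to 5.04 CPM on day 5, against 9.196 to 12.1 CPM on day 0; log2 change -1.51, adjusted p = 3e-06), as were the GTPase Mx2 (1.61 to 2.55 CPM on day 5, against 4.53 to 5.38 CPM on day 0; log2 change -1.40, adjusted p = 3.68e-06) and the receptor transporter Rtp4 (2.299 to 5.04 CPM on day 5, against 7.93 to 10.5 CPM on day 0; log2 change -1.46, adjusted p = 0.000118). Rsad2 and Ifit3 moved in opposite directions, and their upstream windows are shown because both hold the interferon-stimulated response element. The capitals mark GAAA, any 2 bases and GAAA again, on either strand. The windows lie at chr12:26456453-26456702 (minus strand) and chr19:34583279-34583528 (plus strand).
Rsad2: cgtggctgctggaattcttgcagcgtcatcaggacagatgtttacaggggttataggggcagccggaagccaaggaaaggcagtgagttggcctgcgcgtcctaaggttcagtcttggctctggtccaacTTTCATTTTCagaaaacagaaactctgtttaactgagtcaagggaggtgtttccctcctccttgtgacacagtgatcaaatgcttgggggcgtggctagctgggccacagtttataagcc
Ifit3: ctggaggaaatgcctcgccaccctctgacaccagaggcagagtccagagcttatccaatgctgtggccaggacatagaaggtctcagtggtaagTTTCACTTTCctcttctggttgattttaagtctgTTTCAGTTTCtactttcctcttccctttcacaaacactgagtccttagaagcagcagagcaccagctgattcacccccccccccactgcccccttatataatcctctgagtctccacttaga
The motif occurred 1 time in the window of Rsad2 and 2 times in that of Ifit3, and 2.87% of all windows held it. Of the list's members with a window, it was in 3 of 7 that were higher and in 3 of 11 that were lower.

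Of 28 inflammatory cytokines and NF-kappaB targets 21 had enough counts to be tested. Of these, 11 were lower and 2 higher (median log2 change -0.46), or 1 higher without wild-type replicate 1 of day 5. Nfkbia, the inhibitor that NF-kappaB itself induces, had 39.8 to 49.1 CPM on day 5, against 86.7 to 109 CPM on day 0 (log2 change -1.17, adjusted p = 1.71e-07). Relb, a subunit of NF-kappaB, had 10.4 to 14.9 CPM on day 5, against 19.5 to 29.4 CPM on day 0 (log2 change -0.97, adjusted p = 1.33e-05). Tnf, tumour necrosis factor, had 4.04 to 5.77 CPM on day 5, against 6.595 to 8.57 CPM on day 0 (log2 change -0.55, adjusted p = 0.00421), and its call was lost with all 16 libraries (adjusted p = 0.0834). Ptgs2, which encodes cyclooxygenase 2, had 1.28 to 1.87 CPM on day 5, against 2.67 to 4.903 CPM on day 0 (log2 change -1.21, adjusted p = 0.000367), and its call was lost in the same fit (adjusted p = 0.0814). Il1b, interleukin 1 beta, had 13.9 to 22.5 CPM on day 5, against 14.9 to 30.7 CPM on day 0 (log2 change 0.06, adjusted p = 0.871). Il6 had 0.307 to 0.447 CPM on day 5, against 0.298 to 0.707 CPM on day 0 (log2 change -0.53, adjusted p = 0.163). Il1a, interleukin 1 alpha, was higher at a low level (0.4403 to 0.979 CPM on day 5, against 0.0976 to 0.384 CPM on day 0; log2 change 1.46, adjusted p = 0.00544). The interleukin 17 and 23 genes of the psoriasis axis, Il17a, Il17f, Il22 and Il23a, had too few counts to be tested. Among them Il17a had 0.0297 to 0.269 CPM on day 5, against 0 CPM on day 0. Complement and acute-phase genes gave 11 of 20 higher and 1 lower (median log2 change 0.52). Saa3, an acute-phase protein of macrophages, had 2.12 to 4.13 CPM on day 5, against 0.0488 to 0.202 CPM on day 0 (log2 change 4.76, adjusted p = 5.42e-09). C4b, a component of the classical complement pathway, had 1.65 to 5.25 CPM on day 5, against 0.488 to 0.951 CPM on day 0 (log2 change 2.24, adjusted p = 0.00019).

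Heat shock genes held 3 of the 10 largest falls. Hspa1b, an inducible Hsp70 chaperone, had 58.2 and 26.9 CPM in the knockout and 16.9 and 17.7 CPM in the wild type on day 5, against 391 and 288 CPM in the knockout and 322 and 391 CPM in the wild type on day 0 (log2 change -3.67, SE 0.43, adjusted p = 0.000696). Hspa1a, a near-identical copy whose fragments cannot be fully separated from it, had 8.58 to 33.03 CPM on day 5, against 149.6 to 203 CPM on day 0 (log2 change -3.60, adjusted p = 0.00114). Hspa1l, the neighbouring testis-type Hsp70 gene, had 0.211 to 0.766 CPM on day 5, against 3.09 to 4.75 CPM on day 0 (log2 change -3.35, adjusted p = 8.77e-08). On days 1 and 2 replicates of the same group lay far apart, on a scaling over all 16 libraries. Hspa1b had 26.6 and 81.2 CPM in the knockout and 98.7 and 235 CPM in the wild type on day 1. On day 2 it had 38.0 and 333 CPM in the knockout and 214 and 489 CPM in the wild type. The cause of this spread was not tested. Chosen after their values were seen, Hsph1 and Dnajb1, which help Hsp70, had log2 changes of -1.93 and -1.37, and the constitutive Hspa8 had -0.69. The upstream window of Hspa1b, at chr17:34959239-34959488 (minus strand), is shown with the heat shock element GAANNTTC, on either strand, in capitals.
Hspa1b: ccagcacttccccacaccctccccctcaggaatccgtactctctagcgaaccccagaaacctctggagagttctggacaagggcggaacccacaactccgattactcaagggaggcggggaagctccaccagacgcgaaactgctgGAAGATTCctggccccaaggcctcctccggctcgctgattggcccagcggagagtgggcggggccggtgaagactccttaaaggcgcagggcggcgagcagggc
It held 1 match, and 5.08% of all windows held the element.

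Stress and biosynthesis genes rose in part. Among them are targets of ATF4, a factor that acts downstream of eIF2 alpha kinases, of which PKR is a member. Of 25 targets of the factor ATF4, 14 were higher and 2 lower (median log2 change 0.39), or 1 lower without knockout replicate 1 of day 0. Asns, asparagine synthetase, had 27.5 and 22.2 CPM in the knockout and 19.2 and 28.9 CPM in the wild type on day 5, against 1.25 and 1.78 CPM in the knockout and 0.789 and 2.25 CPM in the wild type on day 0 (log2 change 3.99, SE 0.30, adjusted p = 1.05e-05). The knockout and wild-type pairs overlapped on day 5. Pycr1, an enzyme of proline synthesis, had 1.097 to 2.37 CPM on day 5, against 0.261 to 0.4904 CPM on day 0 (log2 change 2.26, adjusted p = 2.82e-06). Slc7a5, a transporter of large neutral amino acids, had 31.7 to 48.5 CPM on day 5, against 8.29 to 9.62 CPM on day 0 (log2 change 2.10, adjusted p = 2.13e-09). Atf4 itself had 80.4 to 97.4 CPM on day 5, against 78.7 to 85.9 CPM on day 0 (log2 change 0.06, adjusted p = 0.601). Of 20 genes of the unfolded protein response and secretion, 10 were higher and 2 lower (median log2 change 0.26), and 6 instead of 10 were higher without wild-type replicate 2 of day 5. Sdf2l1, a chaperone cofactor of the endoplasmic reticulum, had 11.8 to 18.05 CPM on day 5, against 6.73 to 10.2 CPM on day 0 (log2 change 0.74, adjusted p = 0.000198).

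Lists of metabolism and of the ribosome were described in the same way. Of 21 glycolysis genes, 10 were higher and 3 lower (median log2 change 0.16). Pklr, the pyruvate kinase of liver and red cells, had 25.4 to 40.6 CPM on day 5, against 0.576 to 1.304 CPM on day 0 (log2 change 5.13, adjusted p = 5.17e-07). Pfkm, a form of phosphofructokinase, had 17.98 to 28 CPM on day 5, against 2.02 to 3.01 CPM on day 0 (log2 change 3.26, adjusted p = 8.94e-10). Without knockout replicate 2 of day 5, 5 glycolysis genes were lower instead of 3. Of 22 cholesterol genes, 10 were lower and 4 higher (median log2 change -0.21). Cyp51, a sterol demethylase, had 7.17 to 8.48 CPM on day 5, against 13.7 to 16.6 CPM on day 0 (log2 change -0.96, adjusted p = 2.23e-06). Of 30 ribosomal protein genes, 13 were lower and none higher (median log2 change -0.20), or 1 higher without wild-type replicate 1 of day 0. Rplp1, a stalk protein of the large subunit, had 313 to 360.2 CPM on day 5, against 418 to 604 CPM on day 0 (log2 change -0.62, adjusted p = 0.000344).

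Of 26 endothelial and stromal genes, which a sieved suspension holds in part, 19 passed the filter on low counts. Of these, 16 were higher and none lower; some passed through their day 5 level, so the count is no measure of the whole list. Col1a1, type I collagen, had 2.23 to 4.03 CPM on day 5, against 0.146 to 0.261 CPM on day 0 (log2 change 3.81, adjusted p = 6.58e-09), and Col3a1, type III collagen, had 2.49 to 3.92 CPM on day 5, against 0.3903 to 0.4601 CPM on day 0 (log2 change 2.81, adjusted p = 1.78e-08). With only genes of FPKM 1 or more tested, 5 were higher. The list of epithelial and pancreatic genes, meant as a check for other tissues, had 21 members, of which 7 passed the filter on low counts, some of them through their day 5 level alone. Of the 7, 4 were higher, 1 was lower and 2 were not called. Its summed level was 39.7 to 44.4 CPM on day 5, against 5.83 to 6.24 CPM on day 0. Cdhr2, a cadherin of brush borders, had 25.8 and 26.4 CPM in the knockout and 30.01 and 25.9 CPM in the wild type on day 5, against 0 and 0.0244 CPM in the knockout and 0.128 and 0.092 CPM in the wild type on day 0 (log2 change 8.68, SE 0.26, adjusted p = 2.69e-11). Its day 0 values are near 0, and over the alternative fits its log2 change ran from 5.85 to 9.42. Cldn2, a claudin of leaky epithelia, had 2.53 and 3.89 CPM in the knockout and 2.62 and 2.19 CPM in the wild type on day 5, against 0 and 0 CPM in the knockout and 0 and 0 CPM in the wild type on day 0, at least 46.0-fold higher against a floor of 3 counts per library. Cela1, an elastase, had 6.35 to 9.15 CPM on day 5, against 0.576 to 1.09 CPM on day 0 (log2 change 3.10, adjusted p = 2.52e-09). Of the defining markers, Prss1, Ins1 and Ins2 were at 0 in all 8 libraries, and Krt8 had 0 to 0.0297 CPM on day 5, against 0 to 0.0244 CPM on day 0. The part of other tissue in these values was not tested.

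The 10 largest rises were ranked among genes with a mean FPKM of 1 or more and no overlap between days. They took in Cdhr2 from the list of epithelial and pancreatic genes, but not Cldn2 or Cela1. From the erythroid lists they took in Erfe and Hbq1b. After Cdhr2 came Podxl, a sialomucin of podocytes, vessels and blood progenitors, with 6.64 and 4.51 CPM in the knockout and 5.503 and 16 CPM in the wild type on day 5, against 0.0607 and 0.0732 CPM in the knockout and 0.0426 and 0.046 CPM in the wild type on day 0 (log2 change 7.18, SE 0.55, adjusted p = 6.5e-06). Tmed6, a carrier of secretory traffic, had 3.78 to 5.85 CPM on day 5, against 0.0607 to 0.0853 CPM on day 0 (log2 change 6.13, adjusted p = 1.05e-10). Pcbd1, a dehydratase of pterin recycling, had 0.894 to 1.37 CPM on day 5, against 0 to 0.046 CPM on day 0 (log2 change 5.99, adjusted p = 9.02e-08). Reep6, a shaper of the endoplasmic reticulum, had 2.74 to 4.803 CPM on day 5, against 0.0244 to 0.123 CPM on day 0 (log2 change 5.63, adjusted p = 1.45e-09). Apol11a, of the apolipoprotein L family, had 2.28 to 3.5 CPM on day 5, against 0 to 0.122 CPM on day 0 (log2 change 5.53, adjusted p = 5.27e-09). Erfe, Hbq1b and the microRNA gene Mir5134 were also among the 10. Mir5134 had 0.119 to 0.358 CPM on day 5, against 0 CPM on day 0, at least 4.02-fold higher against the same floor. With day 0 values near 0, the size of several rises moved with the method. Over the alternative fits the log2 change of Podxl ran from 3.71 to 7.52 and that of Pcbd1 from 3.70 to 8.46. Erfe ran from 3.80 to 6.77, Reep6 from 3.77 to 6.16, Apol11a from 3.54 to 5.99 and Tmed6 from 4.99 to 6.22. The largest fall was that of Crisp3, a secreted cysteine-rich protein, with 0.0255 and 0.089 CPM in the knockout and 0.147 and 0.0705 CPM in the wild type on day 5, against 1.54 and 2.29 CPM in the knockout and 1.32 and 1.27 CPM in the wild type on day 0 (log2 change -4.19, SE 0.37, adjusted p = 1e-07). Trat1, an adaptor of the T cell receptor, had 1.904 to 2.91 CPM on day 5, against 14.1 to 22 CPM on day 0 (log2 change -2.81, adjusted p = 2.39e-10). Snord17 and Snora73b, small nucleolar RNAs, had log2 changes of -2.93 and -2.84. Hspa1b, Hspa1a, Apol7c, Hspa1l, Rgs13 and Il7r, described above, completed the 10.

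**Figure D3:**
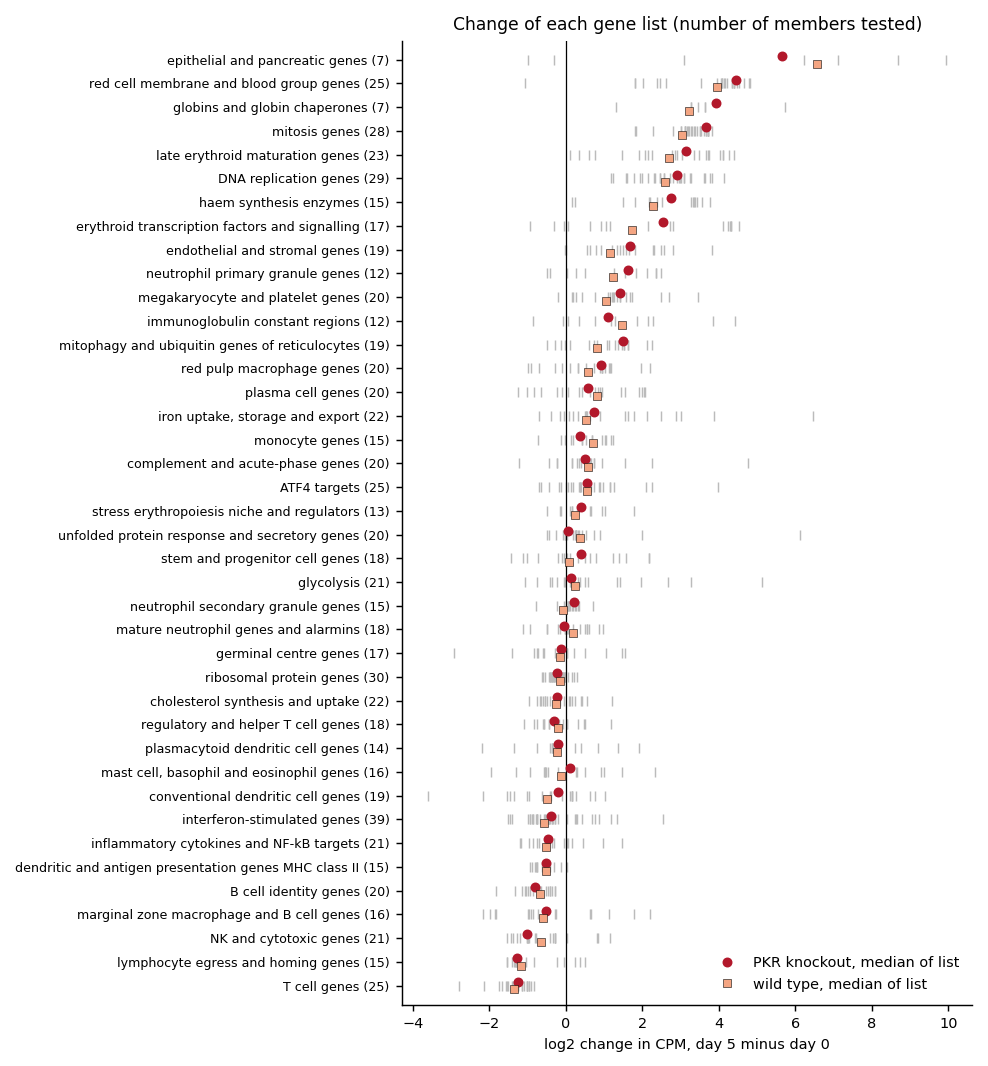
Change of 40 gene lists on the log2 scale, day 5 minus day 0, ordered by the median over both genotypes. Grey ticks are the members tested (both genotypes together), circles the list median in the knockout and squares that in the wild type; the number of members tested stands after each name. Red cell membrane genes had medians of 4.44 in the knockout and 3.96 in the wild type, and T cell genes of -1.26 in the knockout and -1.36 in the wild type.

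Taken by genotype, the knockout had 4391 genes higher (24.5%) and 3555 lower (19.8%) on day 5, 44.3% in all. The wild type had 3836 higher (21.4%) and 3153 lower (17.6%), 39.0% in all. The same 3295 genes were higher in both, which is 75.0% of the knockout's calls and 85.9% of the wild type's. The same 2407 were lower in both, 67.7% of the knockout's and 76.3% of the wild type's. The 4 genes called in opposite directions, chosen after their values were seen, were Igha, Igkv1-117, Rhbdl1 and Gm45416. Igha, the constant region of IgA, had 41.8 and 61.5 CPM in the knockout and 52.1 and 78.5 CPM in the wild type on day 5, against 146 and 121 CPM in the knockout and 26.8 and 18.4 CPM in the wild type on day 0. Its log2 change was -1.37 in the knockout and 1.53 in the wild type, and the difference between genotypes did not pass (adjusted p = 0.17). Across all genes tested the 2 changes correlated at r = 0.890, a description across genes, which are not independent replicates and share their libraries' depth.

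**Figure D4:**
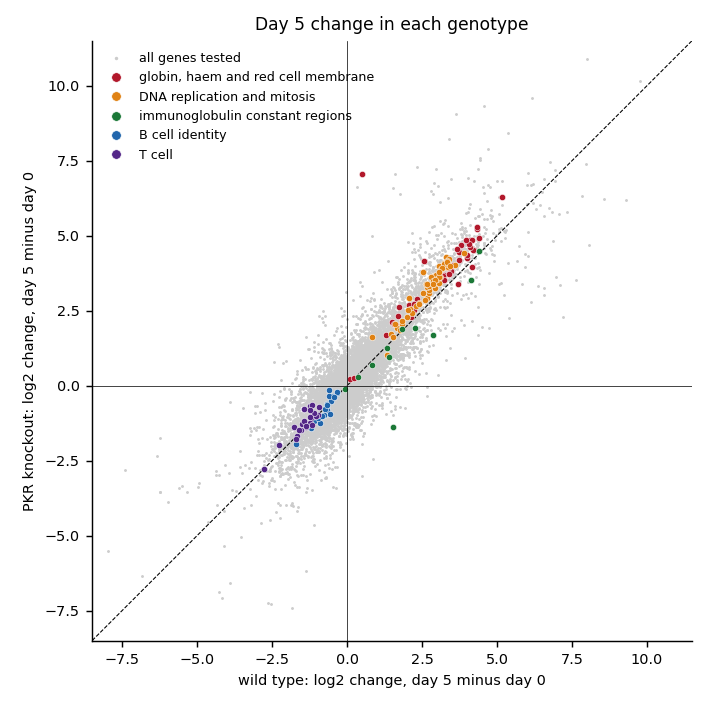
Log2 change from day 0 to day 5 in the PKR knockout (vertical axis) against the wild type (horizontal axis), 1 point for each of 17923 genes, with 5 groups of list members in colour and equality as a dashed line. Most globin, haem, membrane and cell division genes lie above the line and T and B cell genes lie near it.

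The change was more positive in the knockout than in the wild type in 54.5% of all genes tested. In the erythroid lists this held for 16 of 17 regulators, 7 of 7 globins, 15 of 15 haem genes, 18 of 22 iron genes, 23 of 25 membrane genes, 23 of 23 late genes and 8 of 13 niche genes tested. In the lists of cell division it held for 28 of 29 replication genes and 28 of 28 mitosis genes. The same lean was seen in lists of other cells. It held for 18 of 20 red pulp macrophage, 17 of 20 megakaryocyte, 15 of 19 endothelial and stromal and 17 of 25 T cell genes. Other lists leaned the other way, with 3 of 21 natural killer, 4 of 20 plasma cell and 2 of 20 unfolded protein response genes. Members of a list share their libraries and are not independent replicates. The list medians were 2.53 in the knockout and 1.74 in the wild type for the regulators, and 3.92 in the knockout and 3.22 in the wild type for the globins. Tested gene by gene, none of these differences passed. Of 17923 genes, edgeR's interaction test called 1 (0.00558%), the variable segment Ighv1-81, and 1327 had an unadjusted p under 0.05. These counts moved with the tool, the filter and single libraries. DESeq2 called 43 genes with a more positive change in the knockout than in the wild type and 16 with a more negative one. With no filter on low counts edgeR called 143 and 32, and with the replicate block 19 and 7. Without wild-type replicate 1 of day 0, which had the lowest summed globin and membrane levels of its day, it called 196 and 23. It called 58 and 9 without knockout replicate 2 of day 5, and 3 and 7 without wild-type replicate 2 of day 0. Without replicate 1 of either genotype on day 5, only more negative changes in the knockout were called.

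The state of day 5 was not a steady course from day 0. On a scaling over all 16 libraries, the summed CPM of the red cell membrane list were 375 to 658 on day 0, 367 to 460.3 on day 1, 464 to 551 on day 2 and 3992 to 7726 on day 5. Those of the haem list were 169.7 to 228 on day 0, 180.4 to 213 on day 1, 192 to 207 on day 2 and 1139 to 1989 on day 5. The globin sum was lower on day 2 than on day 0, with 459.6 to 1477 on day 0, 112 to 432 on day 1, 18.7 to 174 on day 2 and 6053 to 18111 on day 5. Mitosis genes were higher from day 1, with summed CPM of 260.1 to 474 on day 0, 1210.3 to 1381 on day 1, 2353 to 3450.0 on day 2 and 3156 to 4780.1 on day 5. T cell genes were at their lowest on day 2, with 1807 to 2037 on day 0, 863 to 1171 on day 1, 409 to 565 on day 2 and 692 to 848 on day 5. Immunoglobulin constant regions were at their highest on day 2, with 3534 to 4665 on day 0, 6338 to 7516 on day 1, 21677 to 35540.0 on day 2 and 6587 to 12260.0 on day 5. Interferon-stimulated genes were highest on day 1, with 1241 to 1455 on day 0, 2845 to 4002 on day 1, 1027 to 1287 on day 2 and 857 to 1156 on day 5. Tmed6, among the largest rises of day 5, had 0.0632 to 0.0884 CPM on day 0, 6.84 to 9.63 CPM on day 1, 27.9 to 47.6 CPM on day 2 and 3.83 to 6.07 CPM on day 5. These orders are descriptions of 4 libraries per day and were not tested.

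**Figure D5:**
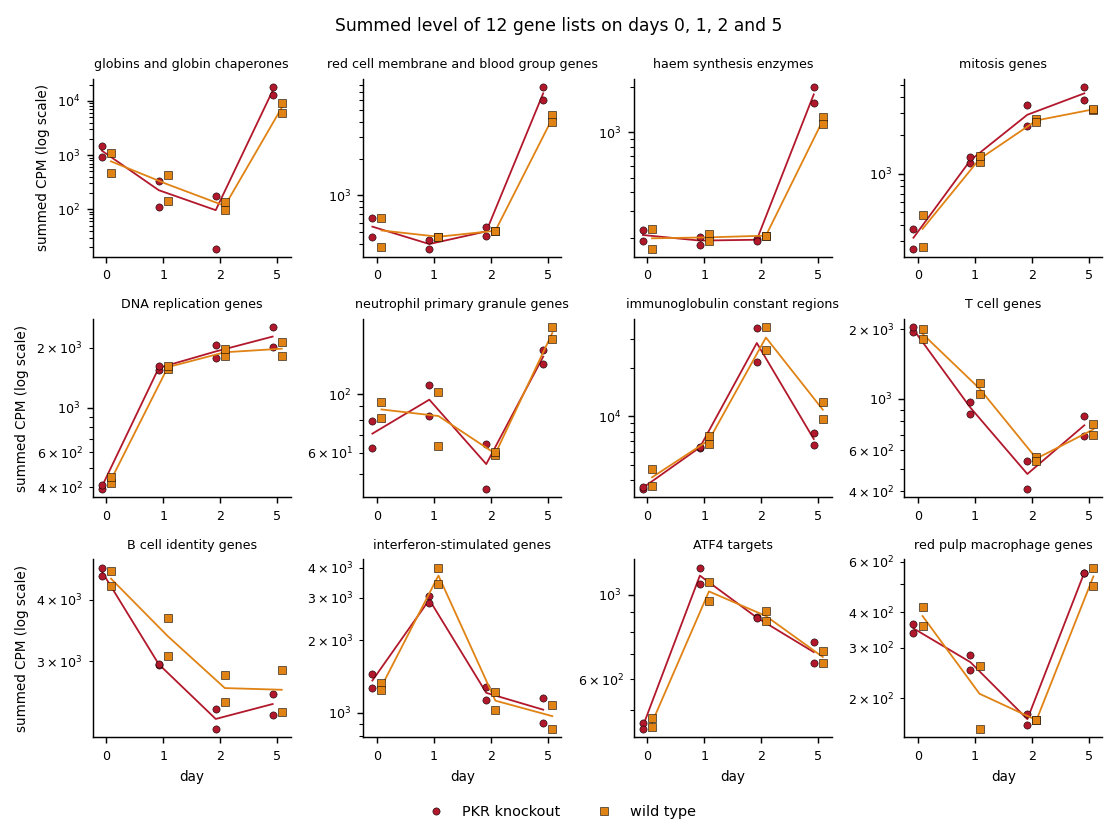
Summed CPM of 12 gene lists on days 0, 1, 2 and 5, on logarithmic axes, for the PKR knockout (circles) and the wild type (squares). Each point is 1 library and lines join the means of 2 libraries. The globin, haem and membrane sums are high on day 5 alone, mitosis genes are higher from day 1 on, and interferon-stimulated genes are highest on day 1.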

How the data were processed

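RNA of spleen cells, depleted of ribosomal RNA, was sequenced as stranded libraries, each pooled from 2 spleens, so p-values measure the spread between such pools. Per the file headers, the authors deposited for each transcript a fragment count, the same count scaled to the library's fragments (FPM, a signal whose sum exceeds its nominal total because isoforms share fragments) and FPKM. The submitters' processing notes name bcl2fastq 2.17.1.14, Trimmomatic, HISAT2 and TopHat and the build mm10; the counting tool and annotation, not given in the sources used here, remain unknown. All measurement columns belonged to labelled samples.

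For each of 55291 gene symbols 1 transcript was kept, the most abundant protein-coding one or else the most abundant, so that shared fragments were counted once. Counts of the 8 libraries were filtered (filterByExpr), scaled by TMM and fitted with edgeR 4.0.16 in R 4.3.3: genotype and day for the change over both genotypes, group means for each genotype and for the difference of changes. The Benjamini-Hochberg threshold was 0.05. The procedure was tested on simulated data. Alternatives used DESeq2 1.42.0, limma 3.58.1 on log2(FPKM + 0.1), other scalings, filters and transcripts, all 16 libraries, a replicate block and the loss of each library.

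The comparison and the 40 gene lists were chosen with earlier results of these data known. Genes named were the 10 largest rises and falls with a mean FPKM of 1 or more and no overlap between days, up to 4 called genes of each list by size of change, and a panel of marker genes. Predicted genes, variable receptor segments and pseudogenes were left out of the largest changes. Some genes that this rule names are not reported here. Other genes named, such as the exceptions within a list, were chosen after their values were seen. Upstream sequences are RefSeq's, for 10257 of the genes tested, whose RefSeq start lay within 500 bases of the counted transcript's. Sets of genes were described by counts and medians only.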

Additional observations from a re-analysis of the deposited data

Results flagged for a closer look

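The change from day 0 to day 5 differed between genotypes in 1 gene by edgeR's test of the difference itself. Ighv1-81, a heavy chain variable segment of antibodies, had 8.79 and 9.55 CPM in the knockout and 14.2 and 20.7 CPM in the wild type on day 5, against 8.03 and 7.81 CPM in the knockout and 4.84 and 3.71 CPM in the wild type on day 0. Its log2 change was 0.21 in the knockout and 2.04 in the wild type, a difference of -1.83 (adjusted p = 0.0458). No gene with the more negative change in the knockout, and so not this one, was called with all 16 libraries, limma or summed isoforms. Without knockout replicate 1 of day 0 or wild-type replicate 2 of day 5 none was called either. In the knockout the 2 days lay close together, and in the wild type both libraries of day 5 were above both of day 0. Over both genotypes the log2 change was 1.13 (adjusted p = 0.063), and it was called in 6 alternatives (adjusted p 0.00329 to 0.0458). Reads of near-identical variable segments can be split between them, and the part of this in the difference was not tested. With 2 libraries in each group, no group was large enough for a search for single libraries that stand apart.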

How the results depend on the processing

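Over all alternatives the genes higher on day 5 were 49.1 to 53.5% of those called, and the median change of all genes ran from -0.031 to 0.020. With each library left out in turn, 4768 to 5264 genes were higher and 4208 to 4659 lower over both genotypes. In the knockout 3277 to 4787 were then higher and 2115 to 4124 lower, fewest without replicate 1 of day 5. In the wild type 2589 to 3872 were higher and 1553 to 3258 lower, fewest without replicate 2 of day 5. limma called 2837 genes higher in the knockout and 2043 lower in the wild type, from the 13688 genes with an FPKM of 1 or more. The difference between genotypes moved most. Left-out libraries gave 0 to 196 genes with the more positive change in the knockout and 0 to 23 with the more negative. The more positive change was counted in 196 genes without wild-type replicate 1 of day 0. It was counted in 58 without knockout replicate 2 of day 5 and in 3 without wild-type replicate 2 of day 0. Counts of more positive and more negative changes were 43 and 16 with DESeq2 and 143 and 32 with no filter. They were 19 and 7 with the replicate block. Genes with the more negative change numbered 4 with DESeq2's size factors, the FPKM filter or the most abundant transcript of any type. They numbered 0 with all 16 libraries, limma or summed isoforms. The cause was not tested.

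The lower level of Eif2ak2 in the knockout was -0.8349 with all 16 libraries, -0.8772 with limma and -0.8288 with summed isoforms, none past the threshold, and -0.9007 to -0.7633 with libraries left out. Its day 5 change of 0.28 (adjusted p = 0.0285) lost its call in 6 alternatives. Over all alternative fits S100a9 ran from -0.1831 to 0.1767 and Il1b from -0.084 to 0.3563, and neither was called. Clec4d lost its call with all 16 libraries and Rps14 with limma. Over all named genes, these included, 3492 values kept direction and call, 26 lost and 7 gained a call, and 9 changed sign. Of the list counts, 1463 stayed within 1.5 times and 57 did not. With the replicate block 5143 genes were higher and 4725 lower over both genotypes. Same-numbered libraries deviated with correlations of -0.091 to 0.232, the highest between the 2 genotypes of day 0. The main fits did not pair libraries by number, and whether the numbers mark pairs was not settled.

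Limits are the 2 libraries per group, each a pool, the lack of a cream control, the loss of red cells in lysis, and shared fragments between near-identical genes. Genes with few counts, such as Bmp4 and the interleukin 17 family, could not be measured at this depth.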

Other observations

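Within lists that were mostly lower, some members were higher. They were chosen after their values were seen. Gzmk, a granzyme of effector memory T cells, had 0.332 to 0.8898 CPM on day 5, against 0.215 to 0.448 CPM on day 0 (log2 change 1.16, adjusted p = 0.00974). S1pr5, the sphingosine phosphate receptor with which natural killer cells leave tissue, had 9.8 to 11.9 CPM on day 5, against 5.77 to 7.45 CPM on day 0 (log2 change 0.81, adjusted p = 3.09e-05). Cxcr3, a chemokine receptor of effector T cells, had 8.43 to 10.1 CPM on day 5, against 5.31 to 7.93 CPM on day 0 (log2 change 0.50, adjusted p = 0.00483), and Itgal, the alpha chain of the integrin LFA-1, had 139.9 to 169 CPM on day 5, against 100.1 to 136 CPM on day 0 (log2 change 0.37, adjusted p = 0.00853). The days overlapped in Gzmk and were apart in the other genes. Marco, a scavenger receptor of marginal zone macrophages, had 3.62 to 4.39 CPM on day 5, against 0.683 to 1.64 CPM on day 0 (log2 change 1.78, adjusted p = 4.97e-06), whereas Cd209d, a lectin of the same family as Cd209a, had 0.128 to 0.445 CPM on day 5, against 0.844 to 1.29 CPM on day 0 (log2 change -1.86, adjusted p = 0.000171). Among interferon-stimulated genes, Ifi44 had 0.843 to 1.84 CPM on day 5, against 0.268 to 0.597 CPM on day 0 (log2 change 1.35, adjusted p = 0.00176) and Oas3, an oligoadenylate synthetase, had 16.8 to 32.3 CPM on day 5, against 11.9 to 15.1 CPM on day 0 (log2 change 0.77, adjusted p = 0.00102).

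Among complement genes, C1qa, C1qb and C1qc, the chains of C1q that macrophages make, had log2 changes of 0.54, 0.74 and 0.96. C1qc had 33.2 and 30.8 CPM in the knockout and 32.2 and 24.96 CPM in the wild type on day 5, against 15.9 and 10.8 CPM in the knockout and 18.8 and 17.2 CPM in the wild type on day 0 (log2 change 0.96, adjusted p = 0.000115). C3ar1, the receptor for the fragment C3a, was lower, with 0.504 to 0.685 CPM on day 5, against 1.002 to 1.54 CPM on day 0 (log2 change -1.22, adjusted p = 0.000358). Cfb, factor B of the alternative pathway, had 2.91 to 6.46 CPM on day 5, against 1.34 to 2.09 CPM on day 0 (log2 change 1.55, adjusted p = 3.03e-05).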
